A study of Mus musculus with 23 samples.

Results

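The genes of prostaglandin and leukotriene metabolism were followed through 4 stages of blood cell formation in mouse cells, with and without the leukaemic fusion protein RUNX1-ETO. The set held 10 genes, namely Pla2g7, Ptgs1, Ptgs2, Hpgds, Tbxas1, Alox5, Alox5ap, Ltc4s, Hpgd and Ptger4, out of 20145 genes with a named probe on the array. All 10 were among the 15245 genes tested. The genes were picked from the pathway with earlier results of these data known, and where a gene had several probes the one with the highest mean over all arrays was chosen, so the make-up of the list and the level of a probe are descriptions and not findings.

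Prostaglandins, thromboxane and leukotrienes are short-lived lipid messengers made from arachidonic acid, which phospholipases release from membranes. The cyclooxygenases begin the prostaglandin branch and 5-lipoxygenase with its activating protein begins the leukotriene branch. Dedicated enzymes such as 15-hydroxyprostaglandin dehydrogenase destroy the products again, and mast cells, macrophages, granulocytes and platelets are the blood cells best known for making them. Prostaglandin E2 is also known to act on blood stem cells while they form.

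The cells came from a mouse embryonic stem cell line that carries a human RUNX1-ETO gene behind a tetracycline-responsive promoter, in cells with normal Runx1. The line was picked as a colony, and the uninduced controls carry the same transgene. Blast cultures were sorted on day 2 into haemogenic endothelium (HE, KIT+ Tie2+ CD41-), the next stage named HE2 (KIT+ Tie2+ CD41+) and CD41+KIT+Tie2- progenitors, each without doxycycline (Dox) or with 0.1 μg per ml Dox from day 1. Progenitors grown on in cytokine medium gave the myeloid progenitors, which were left uninduced or received the same dose overnight, so between the sorted stages and the myeloid progenitors the length of induction and the stage cannot be told apart. HE, HE2 and myeloid progenitors each had 3 uninduced and 3 induced arrays, the CD41+KIT+Tie2- progenitors had 2 of each, and the labels give the strain as C57BL/6. Induced myeloid array 3 is a biological replicate by its title and a technical one by its source name. It was kept, so the number of separate induced myeloid samples may be 2, and without it no member was called with Dox at that stage. The labels call most of these arrays biological replicates without saying what separated the cultures, so p-values measure the spread between arrays.

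Values are normalized log2 intensities of 1 probe on a 1-colour array, where a difference of 1 is a 2-fold change, and levels of different genes are not comparable. A call required 2 things of the limma fit, a P before adjustment no higher than 0.001 and a difference of 2-fold or more. The adjusted p-value is printed too. Where 1 of 2 progenitor arrays was left out, the lone array was assumed to vary like the other groups. Between 48.8% and 78.4% of the spots of an array lay well above background. The arrays lay on 3 slides, of which slides 1 and 2 held uninduced and induced HE and HE2 together. Slide 3, scanned on another day, held all the myeloid arrays, induced progenitor array 2 and a further uninduced progenitor array. That further array, a technical replicate by its title, was left out of the fit. The probe for Runx1t1, the mouse counterpart of the ETO part of the fusion, was called higher with Dox in HE2 (2.08 on the log2 scale), progenitors (3.96) and myeloid progenitors (2.06) and stood 1.24 higher in HE without passing the threshold. Whether this probe binds the human transgene was not tested. Itga2b, which encodes the CD41 used in the sort, had a mean of 11.81 in uninduced and 9.35 in induced HE2 and was 1.86 higher in induced HE2 than in induced HE (7.49), with overlapping arrays and no call. The mean of induced HE2 lay below that of uninduced HE.

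Promoter sequence is shown for the 4 members with the largest called rises and falls with Dox, because RUNX1-ETO carries the DNA-binding part of RUNX1. The sequences are the 250 bases before the start site that RefSeq (build GRCm38.p6) gives, read on the strand of the gene. They lie at chr8:56294302-56294551 (Hpgd, plus strand), chr17:43568201-43568450 (Pla2g7, plus strand), chr6:116461179-116461428 (Alox5, minus strand) and chr11:50238533-50238782 (Ltc4s, minus strand). Capitals mark the RUNX motif TGTGGT or its reverse complement ACCACA.
Hpgd: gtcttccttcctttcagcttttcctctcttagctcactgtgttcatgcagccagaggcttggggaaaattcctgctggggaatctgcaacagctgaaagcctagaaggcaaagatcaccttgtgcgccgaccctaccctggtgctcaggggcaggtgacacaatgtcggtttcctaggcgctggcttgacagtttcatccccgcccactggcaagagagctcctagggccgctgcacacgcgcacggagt
Pla2g7: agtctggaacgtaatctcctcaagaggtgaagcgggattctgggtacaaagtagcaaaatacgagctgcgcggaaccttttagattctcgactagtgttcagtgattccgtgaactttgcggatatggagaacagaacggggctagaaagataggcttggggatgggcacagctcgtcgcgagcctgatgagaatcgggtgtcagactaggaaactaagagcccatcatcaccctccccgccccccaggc
Alox5: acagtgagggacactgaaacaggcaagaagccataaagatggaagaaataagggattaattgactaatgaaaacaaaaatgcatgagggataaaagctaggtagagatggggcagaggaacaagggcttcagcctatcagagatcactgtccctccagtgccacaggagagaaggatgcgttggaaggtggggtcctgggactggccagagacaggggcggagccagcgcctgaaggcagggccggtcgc
Ltc4s: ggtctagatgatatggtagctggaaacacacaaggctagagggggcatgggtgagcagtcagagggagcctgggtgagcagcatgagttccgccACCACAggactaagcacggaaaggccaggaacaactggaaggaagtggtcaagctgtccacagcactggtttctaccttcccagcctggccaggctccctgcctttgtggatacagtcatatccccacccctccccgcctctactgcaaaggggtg
The Hpgd, Pla2g7 and Alox5 windows held neither form of the motif. The Ltc4s window held ACCACA from 156 bases before the start. Of the 9 members with an entry, Ptgs2 (197 bases before the start) and Hpgds (250 bases before the start) also had a match, where 4614 of the 32851 promoters in the table held one, and the other 6 had none. These letters are a description of the windows and say nothing about binding, and for Pla2g7, Ptgs1, Tbxas1 and Hpgds the start lay inside the annotated gene, so the annotation also holds a start further upstream.

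Induction of RUNX1-ETO in HE and HE2 went with higher Hpgd and Pla2g7, both of which encode enzymes that destroy lipid messengers, and these were the largest changes among the members. Of the 3 leukotriene genes, Ltc4s was called lower in HE and Alox5 and Alox5ap in HE2. In HE, 3 of the 10 members were called higher and 1 lower, where 4.68% of all tested genes were called higher and 2.39% lower. In HE2, 2 were called higher and 2 lower, against 5.16% and 2.05% of all tested genes. No member was called in the CD41+KIT+Tie2- progenitors, where 3.02% of genes were called higher and 0.702% lower, although 5 of the 10 had an unadjusted limma P under 0.05, all lower with Dox. In the myeloid progenitors 1 member was called lower, while 5.12% were called higher and 1.18% lower. The 10 members had a median change of 0.03 in HE and -0.23 in HE2, and of -0.88 in progenitors and -0.63 at the myeloid stage. The median of all genes lay between -0.04 and -0.01 in these comparisons. Fewer cells of a type and less RNA per cell cannot be told apart in such sorted bulk samples.

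**Figure D1:**
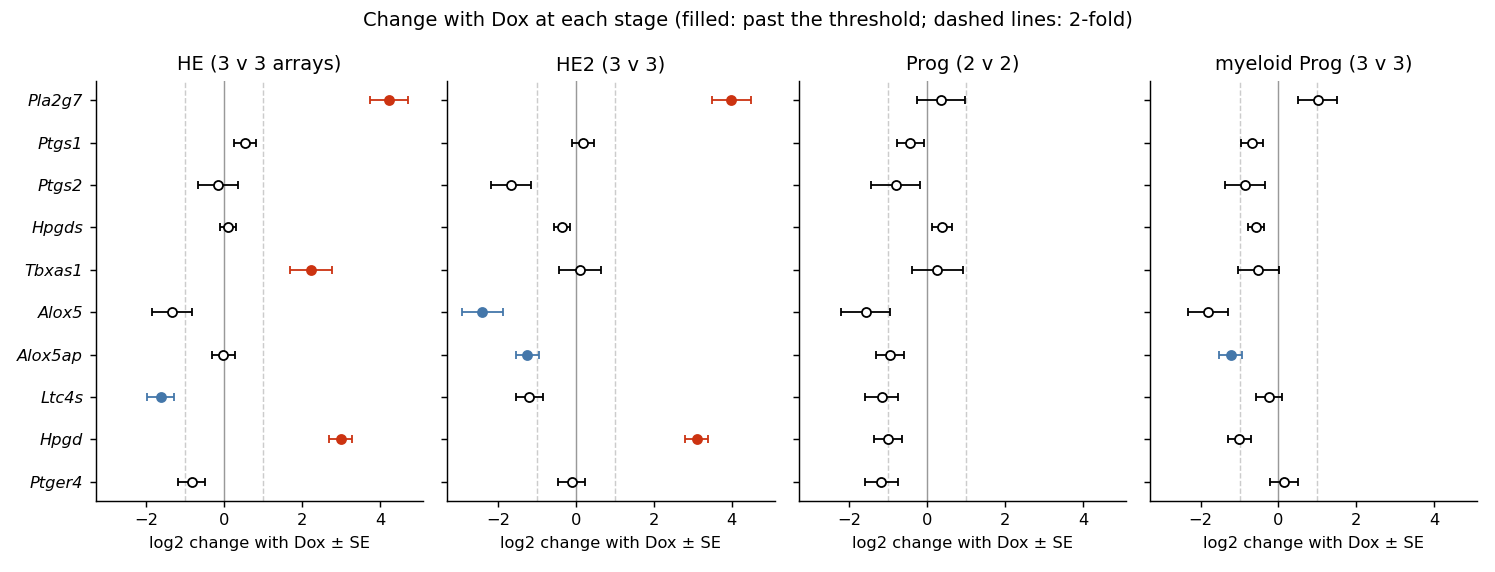
Change with Dox (x axis, log2 difference between induced and uninduced group means, bars are the standard error of the fit) for each member (y axis) at each stage. Filled points passed the threshold, in red where higher and in blue where lower, and dashed lines mark a 2-fold change. Pla2g7 and Hpgd stand far to the right in HE and HE2. In both later stages Hpgd lies at the left 2-fold line. Pla2g7 lies between the lines in progenitors and at the right line in myeloid progenitors.

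Pla2g7 encodes the secreted acetylhydrolase that inactivates platelet-activating factor, a lipid made alongside the leukotrienes. Its log2 intensity was 5.94, 6.22 and 7.11 on the uninduced HE arrays and 10.14, 10.72 and 11.09 on the induced ones. In HE2 it was 6.58, 6.67 and 6.35 without Dox and 10.07, 10.19 and 11.33 with Dox. All induced arrays of both stages lay far above all uninduced ones, a rise of 4.23 (SE 0.497, 18.7-fold, limma adjusted p = 1.09e-05) in HE and 4.0 (SE 0.497, 16-fold, limma adjusted p = 2.62e-05) in HE2. The rise was 4.06 on slide 1 and 3.80 on slide 2 in HE, and 3.45 and 4.41 in HE2. Over the alternatives it ran from 3.13 to 4.57 in HE and from 3.07 to 4.23 in HE2. It was called in each, but the folds are rough values. A second, dimmer probe of Pla2g7 was 2.02 higher in HE and 2.14 higher in HE2.

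The later stages already held Pla2g7 RNA without Dox. The uninduced progenitor arrays read 9.74 and 8.28 and the induced ones 9.29 and 9.44, which overlapped, with a difference of 0.36 (SE 0.608), and the second probe differed by 0.95. Uninduced myeloid progenitors read 8.45, 10.81 and 10.08 and induced ones 10.76, 10.61 and 10.98, again with overlap and with a difference of 1.00 (SE 0.497, limma adjusted p = 0.217).

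Hpgd encodes 15-hydroxyprostaglandin dehydrogenase, the enzyme that begins the breakdown of prostaglandin E2. It read 7.44, 6.85 and 7.40 on uninduced HE arrays and 10.36, 10.11 and 10.19 on induced ones. In HE2 it read 7.42, 7.32 and 7.55 without Dox and 10.96, 10.19 and 10.44 with Dox. The groups were separated by more than 2 log2 units at both stages, with a rise of 2.99 in HE (SE 0.300, 7.92-fold, limma adjusted p = 1.98e-06) and 3.1 in HE2 (SE 0.300, 8.59-fold, limma adjusted p = 2.15e-06). Within slides the rise was 3.21 and 2.74 in HE and 3.59 and 2.77 in HE2, and the second probe gave 2.58 and 2.62.

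In the later stages the difference pointed down and was not called. Progenitors read 10.16 and 9.54 without Dox and 9.60 and 8.10 with Dox, which overlapped, a difference of -1.0 (SE 0.367, limma adjusted p = 0.129). It was -0.56 within slide 1 and -0.26 by the second probe. Without induced progenitor array 1 it was -1.75 and passed the threshold, with a single induced array left. That array lay on slide 3, which held no uninduced progenitor array of the fit. The further uninduced progenitor array on that slide, left out of the fit, read 9.38. Myeloid progenitors read 11.52, 11.49 and 11.01 without Dox and 10.34, 10.23 and 10.43 with Dox. There all induced arrays lay below all uninduced ones, but the difference of -1.0 (SE 0.300, limma adjusted p = 0.0310) did not reach the P threshold.

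The Dox response of these genes differed between stages by the test of the difference itself. From HE2 to progenitors the response of Hpgd was lower by 4.10 (SE 0.474, limma adjusted p = 0.00130), and that of Pla2g7 by 3.64 (SE 0.785, limma adjusted p = 0.0722), which passed the unadjusted threshold but would not pass an adjusted one of 0.05. These were the 2 members called of 10, where 0.643% of all genes were called in either direction, and both were lower. Leaving out uninduced progenitor array 1 changed the Pla2g7 value to -2.91 and leaving out induced progenitor array 1 to -3.56, both below the call. With the mean of its probes Pla2g7 gave -2.42 and with slide as a block -3.52, and neither was called. Hpgd was called under every alternative run. No member's response was called different between HE and HE2, where 1.33% of genes were, or between progenitors and myeloid progenitors, where 1.5% were, and 2 members had an unadjusted limma P under 0.05 in each of these comparisons.

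**Figure D2:**
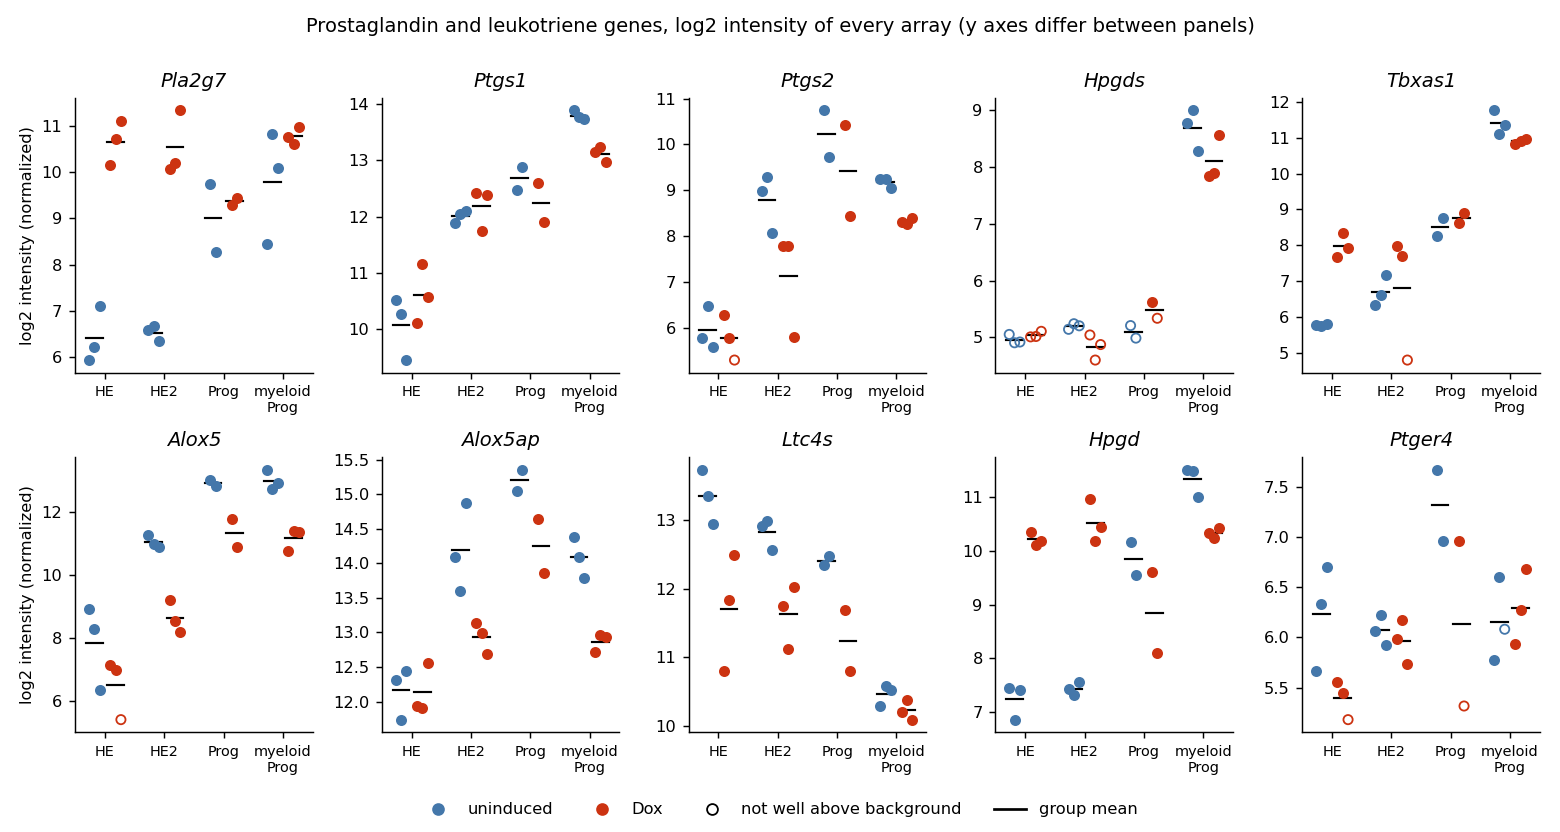
Normalized log2 intensity (y axis, a different range in each panel) of the 10 members on every array, by stage (x axis). Blue points are uninduced and red points induced arrays, open points lay not well above background, and black bars are group means. Pla2g7 and Hpgd jump with Dox in HE and HE2, and Alox5 climbs from HE to the later stages with the induced arrays of HE2 and later stages below the uninduced ones.

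The cyclooxygenases were not called with Dox at any stage. Ptgs1, the constitutive enzyme, read 10.51, 10.26 and 9.44 on uninduced and 10.11, 11.15 and 10.56 on induced HE arrays, and its differences with Dox were 0.54 and 0.18 in HE and HE2, then -0.43 in progenitors and -0.68 at the myeloid stage. Ptgs2, the inducible enzyme, read 8.99, 9.30 and 8.07 in uninduced HE2 and 7.78, 7.78 and 5.80 in induced HE2. All 3 induced arrays lay below the uninduced ones, with induced array 3 far below its group, and the difference of -1.66 (SE 0.518, limma adjusted p = 0.0334) missed the P threshold. Its other differences were -0.16 in HE, -0.81 in progenitors and -0.86 in myeloid progenitors. In HE the Ptgs2 probe was dim, at 5.78, 6.48 and 5.58 without Dox and 6.28, 5.78 and 5.30 with Dox, the last not well above background.

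Of the terminal prostanoid synthases, Tbxas1, which makes thromboxane, was called higher in induced HE. It read 5.76, 5.76 and 5.79 without Dox and 7.67, 8.35 and 7.93 with Dox, with no overlap and a rise of 2.22 (SE 0.531, 4.65-fold, limma adjusted p = 0.00707). The rise was 1.92 on slide 1 and 2.35 on slide 2. With any 1 of the 6 HE arrays left out the value stayed between 2.03 and 2.37 but the P threshold was missed.

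In HE2 a single array set the Tbxas1 value. The uninduced arrays read 6.32, 6.61 and 7.18 and the induced ones 7.97, 7.69 and 4.79, of which the last, induced array 3, lay not well above background. With it the difference was 0.11 (SE 0.531), and without it 1.13, which was called higher (limma adjusted p = 0.00797). The same array was the low one for Ptgs2. In progenitors the Tbxas1 difference was 0.26 and in myeloid progenitors -0.51.

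Hpgds, the haematopoietic prostaglandin D synthase and a gene typical of mast cells, was not well above background on any HE or HE2 array or on either uninduced progenitor array. It was well above background on 1 of the 2 induced progenitor arrays and on all 6 myeloid arrays, where it read 8.77, 9.0 and 8.28 without Dox and 7.85, 7.90 and 8.57 with Dox. These overlapped, with a difference of -0.58 (SE 0.203, limma adjusted p = 0.0684).

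Among the leukotriene genes, Alox5 encodes 5-lipoxygenase, which starts leukotriene synthesis. In HE2 it read 11.28, 10.98 and 10.88 without Dox and 9.21, 8.55 and 8.19 with Dox. All induced arrays lay more than 1 log2 unit below all uninduced ones, and Alox5 fell by 2.4 (SE 0.520, 5.27-fold, limma adjusted p = 0.00338), with -1.92 on slide 1 and -2.51 on slide 2. The call was lost without uninduced HE2 array 1 or without induced HE2 array 2 or 3, with values of -2.28, -2.35 and -2.17.

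The other stages gave differences of Alox5 in the same direction that were not called. Uninduced HE arrays read 8.93, 8.29 and 6.36 and induced ones 7.15, 6.99 and 5.42, the last not well above background, with overlap and a difference of -1.34 (SE 0.520). Without uninduced HE array 3, the low one, it was -2.09 and was called. Progenitors read 13.02 and 12.83 against 11.80 and 10.90 (-1.58, SE 0.637). Myeloid progenitors read 13.34, 12.73 and 12.91 without Dox and 10.78, 11.40 and 11.36 with Dox, without overlap, a difference of -1.81 (SE 0.520, limma adjusted p = 0.0249).

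Alox5ap encodes the 5-lipoxygenase-activating protein, which hands arachidonic acid to the enzyme. It read 12.31, 11.74 and 12.44 in uninduced HE and 11.94, 11.91 and 12.56 in induced HE, which overlapped with a difference of -0.03. In HE2 it read 14.09, 13.59 and 14.87 against 13.14, 12.99 and 12.69, and in myeloid progenitors 14.38, 14.09 and 13.79 against 12.71, 12.96 and 12.93. The induced arrays lay below the uninduced ones at both of these stages, with falls of 1.25 in HE2 (SE 0.297, limma adjusted p = 0.00658) and 1.22 in myeloid progenitors (SE 0.297, limma adjusted p = 0.00873). Neither call was firm, since the HE2 value was -0.70 on slide 1 and -2.04 on slide 2 and lost its call without uninduced array 1 or 3 or induced array 2 or 3 (-1.30, -0.91, -1.27 and -1.12), and the myeloid call was lost without any 1 of 5 of the 6 arrays (-1.27 to -1.08). Progenitors read 15.05 and 15.35 without Dox and 14.64 and 13.86 with Dox, a difference of -0.95 (SE 0.363) that was not called.

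Ltc4s encodes leukotriene C4 synthase, which makes the cysteinyl leukotrienes. It read 13.74, 13.36 and 12.95 on uninduced and 10.80, 11.84 and 12.49 on induced HE arrays. The groups did not overlap, and Ltc4s fell by 1.64 (SE 0.340, 3.11-fold, limma adjusted p = 0.00248), with -2.75 on slide 1 and -0.78 on slide 2. Without uninduced array 1 the value was -1.44 and without induced array 1, the lowest, -1.18, and neither was called. In HE2 the arrays read 12.92, 12.98 and 12.57 against 11.76, 11.12 and 12.03 (-1.19, SE 0.340), in progenitors 12.35 and 12.47 against 11.69 and 10.80 (-1.17, SE 0.417), both without overlap and not called, and the myeloid difference was -0.24.

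Ptger4, the only receptor in the set, encodes the EP4 receptor for prostaglandin E2 and was dim throughout. Its arrays ranged from 5.18 to 7.67, and 1 of 3 induced HE arrays, 1 of 2 induced progenitor arrays and 1 of 3 uninduced myeloid arrays lay not well above background. The differences with Dox were -0.84 and -0.10 in HE and HE2, then -1.18 in progenitors and 0.14 at the myeloid stage, and none was called. The progenitor difference was -0.71 within slide 1. Without induced progenitor array 1 it was -2.00 and passed the threshold. That set a single array, not well above background and on another slide, against the uninduced ones in the fit. The further uninduced progenitor array, left out of the fit but on the slide of that induced array, read 6.14.

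The steps between stages showed how the levels changed as blood cells formed. From HE to HE2 without Dox, both cyclooxygenases and both 5-lipoxygenase genes rose, with Alox5 up by 3.19, Ptgs2 by 2.84, Alox5ap by 2.02 and Ptgs1 by 1.94. These 4 calls of 10, none of them lower, stood against 2.39% of all genes called higher and 2.66% lower, and their limma adjusted p-values lay between 0.000227 and 0.00152. The 4 were called in each fit that left out 1 array, and the rises were between 1.58 and 4.52 on the single slides. Between induced HE and HE2, Alox5 rose by 2.13 and Ptgs1 by 1.58, where 1.62% of genes were called higher and 1.47% lower. The Alox5 call was lost without induced HE array 3 (1.58) or induced HE2 array 1 or 2 (1.85 and 2.18). Ptgs2 (1.33) and Alox5ap (0.80) were not called there, and the Dox responses of HE and HE2 were not called different for either gene (-1.51 and -1.22, limma adjusted p = 0.596 and 0.261).

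**Figure D3:**
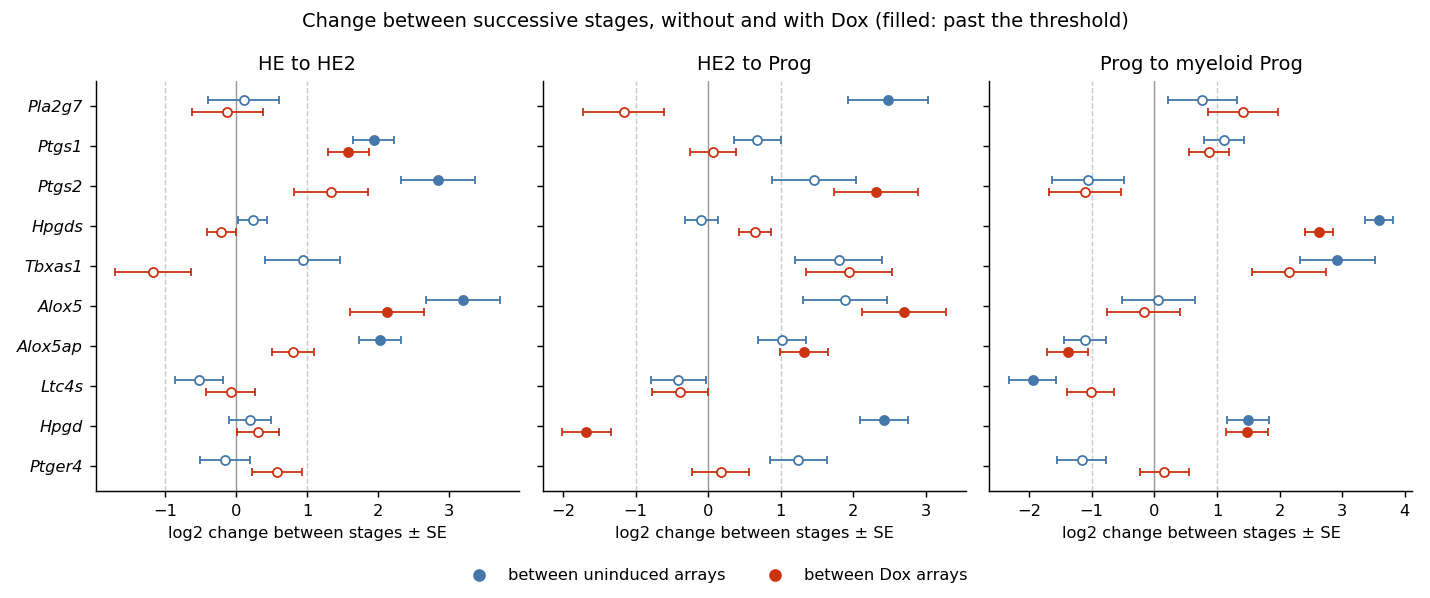
Change between successive stages (x axis, log2 difference of group means, bars are the standard error of the fit) for each member (y axis), between uninduced arrays in blue and between induced arrays in red. Filled points passed the threshold and dashed lines mark a 2-fold change. The blue and red points of Pla2g7 and Hpgd lie on opposite sides of 0 from HE2 to progenitors.

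From HE2 to progenitors without Dox, Hpgd rose by 2.42 (limma adjusted p = 8.44e-05) and Pla2g7 by 2.48 (limma adjusted p = 0.00708), while 1.77% of genes were called higher and 3.61% lower. The Pla2g7 call was lost without uninduced progenitor array 1 (1.75) or uninduced HE2 array 3 (2.38). The induced cells went the other way for Hpgd, which fell by 1.68 (limma adjusted p = 0.00205), and Pla2g7 stood 1.16 lower without being called. The Hpgd fall rested on induced progenitor array 2, the only one of its group on slide 3, without which it was -0.93 and not called, and within slide 1 it was -1.36. Between induced HE2 and induced progenitors Alox5 rose by 2.70, Ptgs2 by 2.31 and Alox5ap by 1.31, against 2.02% of genes called higher and 5.33% lower. Each of these 3 calls was lost without induced progenitor array 1, at 2.25, 1.32 and 0.92, and without induced HE2 array 3, at 2.47, 1.65 and 1.19.

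From progenitors to myeloid progenitors without Dox, Hpgds stood 3.59 higher (12-fold), though it was not well above background on either progenitor array. Over the alternatives Hpgds ran from 2.71 to 3.88 in this step, so the fold is a rough value. It reached the level needed for testing through the myeloid arrays alone, so it had to differ there, and its value is a description. Counting Hpgds, 3 members were called higher and 1 lower, as Tbxas1 rose by 2.92, Hpgd rose by 1.49 and Ltc4s fell by 1.94, and 6.99% of all genes were called higher and 6.91% lower. The uninduced progenitor arrays in the fit and the myeloid arrays shared no slide, so the fit cannot tell slide and stage apart in that step. On slide 3 the further uninduced progenitor array, left out of the fit, read 9.38 for Hpgd, 8.48 for Tbxas1 and 11.70 for Ltc4s. The uninduced myeloid means there were 11.34, 11.42 and 10.47, and the difference within slide 3 was not tested. With slide as a block, which in that step rests on the other groups, Ltc4s (-1.02) and Tbxas1 (2.62) were no longer called. Without uninduced progenitor array 2 Hpgd (1.18) and Ltc4s (-1.88) lost their calls, as did Tbxas1 (2.67) without uninduced progenitor array 1 and Hpgd without uninduced myeloid array 1 or 2 (1.40 and 1.41). Between the induced groups Hpgds differed by 2.62, with 1 of the 2 progenitor arrays not well above background, and Hpgd rose by 1.49, or 2.24 within slide 3. The Hpgd rise was 0.74 and not called without induced progenitor array 2, and its call was also lost without induced myeloid array 1 or 3 (1.48 and 1.44). Alox5ap fell by 1.38, or -0.99 within slide 3, a call lost without any 1 of the 3 induced myeloid arrays or without induced progenitor array 1, and 4.85% of genes were called higher and 2.51% lower.

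The other genes of the pathway were taken from a list of 55 phospholipases, synthases, lipoxygenases, transporters and receptors, of which 45 were tested. With Dox, 5 were called higher and 1 lower in HE, 2 higher and 5 lower in HE2, 1 higher in progenitors and 2 lower in myeloid progenitors, with list medians of -0.00, -0.07, 0.06 and -0.09. Of all tested genes, 4.68% were called higher and 2.39% lower in HE, 5.16% and 2.05% in HE2, 3.02% and 0.702% in progenitors and 5.12% and 1.18% at the myeloid stage, and nothing particular to the list is read from its counts. By group in HE, the calls were 3 of 10 tested receptors and 2 of 7 lipoxygenase and leukotriene genes higher and 1 of 7 prostanoid synthases lower, with none among 14 phospholipase and platelet-activating factor genes or 7 genes of inactivation and transport. In HE2 they were 1 lipoxygenase gene and 1 transport gene higher, and 2 phospholipase genes, 2 prostanoid synthases and 1 receptor lower.

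**Figure D4:**
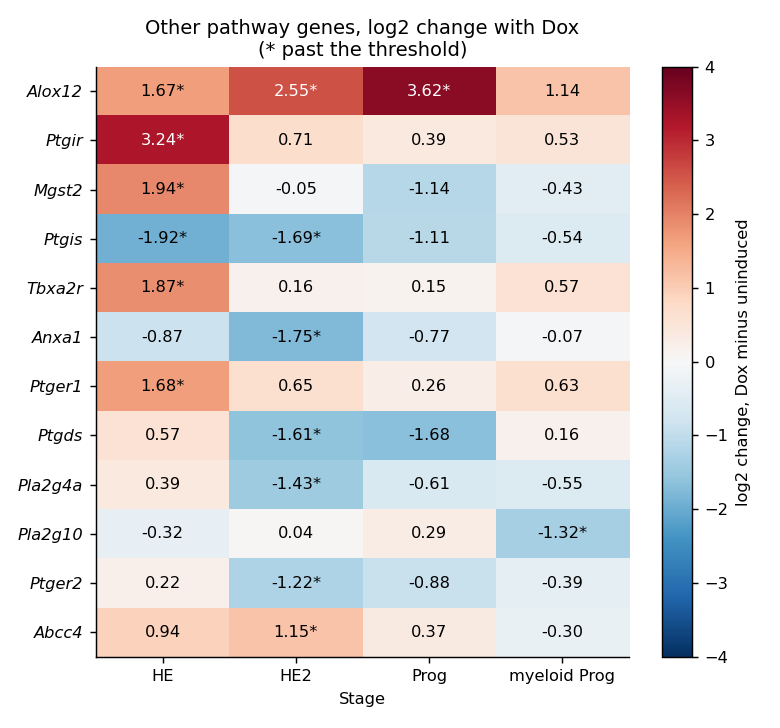
Log2 change with Dox (colour and printed value) of 12 other pathway genes (rows) at the 4 stages (columns), with an asterisk where the threshold was passed. Receptor genes Ptgir, Tbxa2r and Ptger1 are marked in HE alone, and Alox12 is marked in HE, HE2 and progenitors.

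Receptors for prostacyclin (Ptgir), thromboxane (Tbxa2r) and prostaglandin E2 (Ptger1) were called higher in induced HE. Ptgir rose by 3.24 (SE 0.260, 9.42-fold, limma adjusted p = 1.89e-07), Tbxa2r by 1.87 and Ptger1 by 1.68, and all induced arrays lay above all uninduced ones for each. In HE2 the same receptors differed by 0.71, 0.16 and 0.65 and were not called, and the difference between the stages was called for Ptgir (-2.53, limma adjusted p = 0.00534) but not for Tbxa2r (-1.71, limma adjusted p = 0.115) or Ptger1 (-1.03). Ptger2, a further prostaglandin E2 receptor, fell by 1.22 in HE2, a call kept in 17 of 21 alternatives (-1.48 to -0.85) and lost with 75th percentile scaling, an offset of 50 and the deposited log2 values. Of the synthases on this list, Ptgis, the prostacyclin synthase, was lower by 1.92 in HE and 1.69 in HE2, whereas the member Tbxas1 rose in HE. Ptgds, the lipocalin-type prostaglandin D synthase, fell by 1.61 in HE2, a call kept in 12 of 21 alternatives (-1.86 to -1.21) and lost under 75th percentile scaling, under a slide block and without any 1 of 5 of the 6 HE2 arrays.

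Alox12, the platelet-type 12-lipoxygenase, was the pathway gene called at the most stages. It rose by 1.67 in HE, 2.55 in HE2 and 3.62 in progenitors (SE 0.384, 12.3-fold, limma adjusted p = 1.37e-05), and the myeloid difference of 1.14 was not called. Mgst2, a microsomal enzyme able to make leukotriene C4, rose by 1.94 in HE, where Ltc4s fell. Among suppliers of arachidonic acid, Pla2g4a, the cytosolic phospholipase A2, fell by 1.43 in HE2. Pla2g10, a secreted one, fell by 1.32 in myeloid progenitors, a call kept in 18 of 21 alternatives (-1.40 to -1.18) and lost without uninduced array 3 or induced array 1. Anxa1, known as an inhibitor of phospholipase A2 activity, fell by 1.75 in HE2, a call kept in 15 of 21 alternatives (-2.18 to -1.41) and lost without any 1 of 5 of the 6 HE2 arrays. Abcc4, a prostaglandin exporter, rose by 1.15 in HE2.

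Over the 8 group means, the level of Pla2g7 followed those of Neurog3 (r = 0.97), Tcp11l2 (0.96) and Hpse (0.96) most closely among all tested genes. Hpgd followed Ankrd44 (0.98), Chst11 (0.95) and Rbm47 (0.93), and Alox5 followed Slc24a3, Fcer1g and Ndufs1 (each 0.99). Hpgd and Pla2g7 correlated at 0.89. These are descriptions over 8 points that share arrays and slides, with no test.

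Markers of blood cells that use this pathway were also counted, beside the shares of all tested genes called with Dox (higher and lower 4.68% and 2.39% in HE, 5.16% and 2.05% in HE2, 3.02% and 0.702% in progenitors, 5.12% and 1.18% in myeloid progenitors). Of 5 tested mast cell markers, 2 were called higher at every stage but HE2, where 1 was, with Hdc, which makes histamine, higher by 5.31, 5.47, 4.25 and 5.43 and Cpa3 called in HE, progenitors and myeloid progenitors. The mean level of the 8 mast cell probes ran from 6.03 to 6.28 on uninduced HE2 arrays and from 6.91 to 7.09 on induced ones, while Cma1, Fcer1a, Ms4a2 and Mrgprb1 lay not well above background in either. The median change of the 5 tested markers in HE2 was 0.43, against 5.47 for Hdc, so the mean does not show a rise of the whole list. The part of mast cells in the Hpgd and Pla2g7 results was not tested.

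For granulocytes, 2 of 6 tested markers were called lower in HE2, 1 in progenitors and none in HE or myeloid progenitors, and their mean level ran from 8.02 to 8.62 in uninduced and from 7.32 to 7.69 in induced HE2. For macrophages, 1 of 6 was higher and 2 were lower in HE2, with 1 higher and none lower at each other stage. For megakaryocytes, 2 of 9 were lower in HE and 1 in HE2, and 6 were lower at the myeloid stage with none in progenitors. The part of these cells in the lower Alox5 and Alox5ap was not tested. Endothelial markers were called higher for 1, 3, 3 and 6 of 7 from HE to myeloid progenitors, erythroid markers for 2, 3, 3 and 0 of 6, mesenchymal and muscle markers were lower for 3, 4, 0 and 1 of 7 and higher for 1, 0, 1 and 1. Of the 3 sort markers, Itga2b fell by 3.21 in HE, Tek, which encodes Tie2, was called higher in myeloid progenitors, by 3.07, and Kit was called at no stage. Runx1 was not called with Dox either.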

How the data were processed

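RNA of 23 samples was measured on 1-colour Agilent whole-genome arrays. The deposited scanner files, made by the authors with Feature Extraction 10.7.1.1 per the submitters' processing notes, hold spot and background intensities. The authors also deposited a set of normalized log2 values (medians 6.69 to 6.70), used as an alternative. Its scale follows the scanner intensities (lowest r with the closest array 0.997), but 6 of its columns lie closest to the array of another replicate number in the same group.

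Intensities were corrected with normexp (offset 16), quantile normalized after removal of 3671 control spots, and averaged by probe. Genes reaching a log2 value of 6.5 on at least 1 array were tested together in a limma fit of 8 groups over 22 arrays (R 4.3.3, limma 3.58.1), with 14 residual degrees of freedom and Benjamini-Hochberg adjustment. A change needed P of at most 0.001 and at least 2-fold. The script was tested on simulated data. A further progenitor array, labelled as a technical replicate in its title, was normalized and left out of the fit. Spot detection, not read depth, sets the precision here, and no spot was saturated.

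The members and lists (pathway genes, mast cell, megakaryocyte, macrophage, granulocyte, endothelial, erythroid, mesenchymal and muscle, and sort markers) were chosen with earlier results of these data known. The text names all members, at most 12 other pathway genes (past the threshold with Dox, arrays not overlapping, largest change first), 5 check genes (Runx1t1, Runx1, Kit, Tek and Itga2b), and for the 3 members with the largest Dox change the 3 genes with the highest r over group means. Alternatives were another offset, 75th percentile scaling, the deposited log2 values, other probe choice, normalization, filter and threshold, only the groups compared, slide, scan day or replicate number as a block, and each array left out.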

Additional observations from a re-analysis of the deposited data

Results flagged for a closer look

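The Dox response differed between stages, by the test of the difference itself, for 2 members and 5 other pathway genes. From HE to HE2, 4 of the 45 other pathway genes tested were called, where 1.33% of all genes were. From HE2 to progenitors, 2 of the 10 members and 0 of the 45 were called, against 0.643%. From progenitors to myeloid progenitors, 1 of the 45 was called, against 1.5%. From HE2 to the CD41+KIT+Tie2- progenitors the response was lower by 4.10 for Hpgd (-4.10) and 3.64 for Pla2g7 (-3.64) on the log2 scale. From HE to HE2 it differed by -2.53 for Ptgir, -1.99 for Mgst2, -1.83 for Pla2g4a and -1.44 for Ptger2. From progenitors to myeloid progenitors it differed by -2.48 for Alox12. The Hpgd difference was called in 26 of 26 alternatives and that of Pla2g7 (limma adjusted p = 0.0722) in 21 of 26. The Ptgir and Mgst2 differences were called in 27 of 27 alternatives, Pla2g4a in 26 of 27, Alox12 in 22 of 25 and Ptger2 in 18 of 27. The Alox12 call was lost with slide or scan day as a block and without induced progenitor array 2.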

How the results depend on the processing

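Of 2830 values of single members under the alternatives, 2682 stayed on their side of the threshold, 75 lost the call, 73 gained one and 0 called values reversed. The direction of values called in neither fit was not compared. The number of members called in myeloid progenitors (1) was 2 with an offset of 50, the deposited log2 values or scan day as a block, 0 with early and myeloid arrays normalized apart, 3 with an adjusted P of at most 0.05, only the groups compared or slide as a block, and 4 by 2-fold change alone. By 2-fold change alone it was 4 in progenitors (0), 4 from HE to HE2 with Dox (2), 7 from HE2 to progenitors without Dox (2), 8 and 7 from progenitors to myeloid progenitors without (4) and with Dox (3), and 4 and 1 for the responses of HE2 against HE and myeloid progenitors against progenitors (both 0). With 75th percentile scaling it was 1 in progenitors and 1 from HE to HE2 with Dox. With only the groups compared it was 0 from HE to HE2 with Dox, 4 from HE2 to progenitors without Dox and 1 with Dox (4). Slide as a block gave 4 from HE2 to progenitors and 2 from progenitors to myeloid progenitors, both without Dox, where scan day as a block also gave 2 and an adjusted P of at most 0.05 gave 7. For the response of progenitors against HE2 (2) it was 1 with the mean of a gene's probes, the adjusted P or slide as a block. The replicate block gave 3 members in myeloid progenitors, or 1 with the replicate numbers of the deposited table (chosen after seeing the data), and moved no other count by over 1.5 times. Deviations from the group means of same-numbered uninduced and induced samples correlated from -0.53 to 0.69, so the numbers were not taken as pairs there. That check used the replicate numbers of the sample titles. It was not repeated with those of the deposited table, so pairing under the other numbering was not tested. Same-numbered uninduced HE and HE2 arrays correlated (r 0.39, 0.79 and 0.61) but also lay on the same slide, so pairing and slide cannot be told apart. Same-numbered induced HE and HE2 arrays shared slides too and gave 0.19, -0.47 and -0.01. From HE to HE2 without Dox, 4 members were called in the blocked fit as without it. Leaving out 1 array gave 2 to 4 members in HE, 2 to 4 in HE2, 0 to 2 in progenitors, 0 to 1 in myeloid progenitors, 4 to 4 and 1 to 3 from HE to HE2 without and with Dox, 1 to 2 and 1 to 4 from HE2 to progenitors, 2 to 4 and 1 to 2 from progenitors to myeloid progenitors, and 0 to 0, 1 to 2 and 0 to 1 for the responses of HE2 against HE, progenitors against HE2 and myeloid progenitors against progenitors. The 75th percentile scaling moved the median of all genes by -0.15 and -0.13 with Dox in progenitors and myeloid progenitors and by -0.13 and -0.12 from progenitors to myeloid progenitors without and with Dox. It moved the share of higher calls from 50.3% to 37.0% from progenitors to myeloid progenitors without Dox, and from 36.7% to 26.6% for the response of progenitors against HE2. Probes not well above background, such as Hpgds before the myeloid stage, limit what these arrays can show.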

Other observations

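A further uninduced progenitor array, on slide 3, was kept out of the comparisons because its title calls it a technical replicate, although its source name does not. It read 9.38 for Hpgd, 8.33 for Pla2g7, 9.56 for Ptgs2, 12.57 for Alox5, 14.85 for Alox5ap and 11.70 for Ltc4s. Its Hpgd, Ptgs2, Alox5, Alox5ap and Ltc4s values lay below both uninduced progenitor arrays in the fit and its Pla2g7 value lay between them. Hpgds was not well above background on it, as on those 2 arrays.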
